A study of Mus musculus with 11 samples.

Results

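The genes described are 5 caspase genes (Casp1, Casp2, Casp6, Casp8 and Casp9), the apoptosome adaptor gene Apaf1 and a pair of inhibitor of apoptosis genes, Birc2 and Xiap. They were chosen by name, through the RefSeq transcript that the array annotation gives for each probe, over all 3 time points. Each of the 8 genes had 1 probe on the array, and each probe was well above background on all 11 arrays, so all 8 were among the 25079 genes or unnamed features tested. The cells were L-GMP, mouse progenitors of granulocytes and macrophages made leukaemic by MLL-AF9 (a fusion oncogene), of genotype Jmjd2a/b/cf/f;Rosa26::CreERT2 on a C57BL/6 background. Every group carried the floxed Jmjd2a, Jmjd2b and Jmjd2c alleles (also named Kdm4a, Kdm4b and Kdm4c, histone H3 lysine demethylase genes) and CreERT2, a Cre recombinase that tamoxifen switches on, at Rosa26, and all cells grew in 20% serum with 10 ng/ml IL-3. RNA was taken at 0 h without 4-hydroxytamoxifen (4 arrays), and after 48 h (4 arrays) and 96 h (3 arrays) in 500 nM 4-hydroxytamoxifen, which activates the recombinase. The series drew on 4 lines derived from leukaemic mice. The labels do not say which line each array came from, so p-values measure the spread between these arrays, and the number of arrays limits the precision. No cells without floxed alleles were analysed here and untreated cells were measured at 0 h alone, so loss of the demethylases, the drug and recombinase, and time in culture cannot be told apart.

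Caspases are cysteine proteases made as inactive precursors. Casp2, Casp8 and Casp9 encode initiators, which are activated by clustering on adaptor platforms, Casp6 encodes an executioner, and Casp1 encodes the inflammatory protease that matures interleukin-1 beta in myeloid cells. Cytochrome c released from mitochondria binds the Apaf1 protein, which assembles into the apoptosome and activates the Casp9 protein. Birc2 encodes cIAP1, a ubiquitin ligase of tumour necrosis factor receptor complexes that limits Casp8 activation there and restrains the alternative NF-kB pathway. Xiap encodes the X-linked inhibitor of apoptosis, which binds and blocks the Casp9 protein and some, but not all, executioner caspases directly.

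Values are scaled log2 signals, that is log2 of the background-subtracted spot intensity minus the array's own 75th percentile. That percentile lay between 149 and 204 intensity units on the 0 h arrays, 108 and 147 on the 48 h arrays and 229 and 294 on the 96 h arrays, and the share of probes well above background was 51.1% to 57.8%, 49.5% to 58.7% and 53.4% to 75.5%. The 96 h arrays were on a second slide, so slide and time cannot be told apart there, whereas the 48 h and 0 h arrays shared 1 slide. The floxed genes fell, with Kdm4a at 33.1%, Kdm4b at 10.2% and Kdm4c at 3.24% of their 0 h level at 48 h, and at 43.6%, 10.5% and 4.13% at 96 h (limma, adjusted p between 4.23e-07 and 0.00377). The Kdm4c probe was well above background on 2 of 4 arrays at 48 h, so its level there lies near background and is imprecise. All 15 listed markers of granulocyte-monocyte progenitors were detected, among them Mpo and Elane. Their summed level, as multiples of the 75th percentile, was 1050 to 1290 at 0 h, 1440 to 1520 at 48 h and 1350 to 1360 at 96 h. Mature neutrophil markers (12 of 12 detected) had a summed level, as multiples of the 75th percentile, of 105 to 672 at 0 h, 220 to 668 at 48 h and 833 to 1550 at 96 h, with 3 of 12 higher at 48 h and 5 of 12 at 96 h, each relative to 0 h. Of all 25079 genes tested, 2644 and 1549 were higher in these comparisons. The monocyte and macrophage sum (8 of 12 markers) was 25.6 to 47.7 at 0 h, 31.1 to 41.1 at 48 h and 25.7 to 42.5 at 96 h. The lymphoid sum (8 of 10 markers) was 22 to 27.8 at 0 h, 29.8 to 34.2 at 48 h and 23.3 to 37.2 at 96 h, and the megakaryocyte sum (5 of 6) was 0.864 to 2.12, 2.69 to 4.33 and 2.67 to 3.66. Of 8 red cell markers 5 passed the detection filter, with sums of 0.645 to 0.766, 0.747 to 1.11 and 0.802 to 0.856, and Hbb-b1 and Alas2 did not. The mast cell and basophil sum (5 of 6) was 1.96 to 5.21, 3.42 to 7.45 and 1.85 to 2.79. The stromal sum (6 of 8) was 15.7 to 18, 19.4 to 26.8 and 10.4 to 13.5. The part of these marker changes in the results below was not tested, and in bulk RNA fewer cells of a type and less RNA per cell cannot be told apart.

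Birc2 fell at 48 h and had moved most of the way back by 96 h. Its probe (A_51_P254471) gave scaled log2 signals of 0.07, 0.14, 0.16 and 0.05 on the 0 h arrays, -0.72, -0.47, -0.43 and -0.76 on the 48 h arrays and 0.19, -0.07 and -0.35 on the 96 h arrays. The 0 h arrays lay close together, every 48 h array lay below every other array, and the 96 h arrays were spread around the 0 h level with 1 of them above it. The 48 h level was 61.7% of that at 0 h (log2 difference -0.70, SE 0.13, 95% interval -0.98 to -0.41, adjusted p = 0.00777 by limma, Benjamini-Hochberg over all genes). Since the groups did not overlap, any pairing of arrays gives differences below 0. Those of the 4 same-numbered pairs lay between -0.80 and -0.59. At 96 h the difference from 0 h was -0.18 (interval -0.49 to 0.13, adjusted p = 0.419).

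The rise of Birc2 between 48 h and 96 h was 0.52 (SE 0.14, interval 0.21 to 0.82, adjusted p = 0.0409). Every 96 h array lay above every 48 h array, so any pairing gives differences above 0. The call of this rise was close to the threshold. Dropping a single array ended it for 8 of the 11 (0 h replicate 1, 3 or 4, 48 h replicate 1, 2 or 4, 96 h replicate 1 or 2, giving adjusted p of 0.0535 to 0.146), whereas the difference stayed between 0.38 and 0.65 over the 11 fits that left out 1 array. The fall and the rise share the 48 h arrays and are not independent of each other. The 48 h arrays were also those with the lowest overall intensity, whose part in these differences was not tested. In the deposited table, which had been normalized so that all arrays share 1 distribution, the fall at 48 h was -0.52 (adjusted p = 0.00699) and the later rise 0.37 (adjusted p = 0.0576). With each array scaled to its median, the fall was -0.92 and the later rise 0.35 (limma, adjusted p = 0.00768 and 0.299). The difference from 0 h at 96 h was then -0.57 (adjusted p = 0.0627), so the extent of the return depended on the scale.

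To show what lies before the start of the genes that fell, beside a gene that did not pass the test, the promoter stretches of Birc2, Casp2 and Casp1 are given below from RefSeq (GRCm38.p6), on the gene's own strand, ending at the base before the gene's earliest annotated start. They are chr9:7837132-7837307 (minus strand) for Birc2, chr6:42264735-42264901 (plus strand) for Casp2 and chr9:5298267-5298516 (plus strand) for Casp1. Capitals mark matches to 6 motifs searched on both strands, namely the TATA box with the letters TATAAA, the CCAAT box with CCAAT, the GC box with GGGCGG, the E-box with CACGTG, the STAT site with TTCNNNGAA and the AP-1 site with TGANTCA.
Birc2: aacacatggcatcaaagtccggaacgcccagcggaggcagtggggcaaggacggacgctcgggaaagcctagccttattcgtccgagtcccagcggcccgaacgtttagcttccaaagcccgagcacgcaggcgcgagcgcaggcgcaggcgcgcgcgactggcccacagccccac
Casp2: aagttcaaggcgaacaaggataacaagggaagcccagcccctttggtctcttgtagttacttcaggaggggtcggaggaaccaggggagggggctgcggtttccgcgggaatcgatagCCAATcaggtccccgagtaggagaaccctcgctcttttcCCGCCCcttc
Casp1: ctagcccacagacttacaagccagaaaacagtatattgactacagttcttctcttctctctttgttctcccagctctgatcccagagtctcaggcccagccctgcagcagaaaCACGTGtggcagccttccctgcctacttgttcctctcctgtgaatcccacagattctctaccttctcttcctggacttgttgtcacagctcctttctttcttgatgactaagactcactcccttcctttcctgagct

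The printed Birc2 stretch is rich in the dinucleotide CG and held none of the 6 motifs, while a second annotated Birc2 window, at another start, held 1 CCAAT box, 2 GC boxes and 21 CG. Over the whole window of 300 bases around the start, the first Birc2 window held 34 CG and that of Casp2 26, against a median of 7 over the 32851 windows of the RefSeq table, and the Casp1 window held 3. The first windows of the other genes held 46 CG for Apaf1, 28 for Casp9, 20 for Xiap, 16 for Casp6 and 5 for Casp8. None of these passed at 48 h, though the means of all of them but Casp6 were lower than at 0 h. A relation of CG content to the differences was not tested. A CCAAT match occurs in 37.4% of all such windows, a GC box in 35.7% and an E-box in 7.15%. STAT and AP-1 matches, in 8.3% and 7.81% of all windows, were found in no window of the 8 genes. These are matches of letters in short windows and say nothing of which factors bind.

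**Figure D1:**
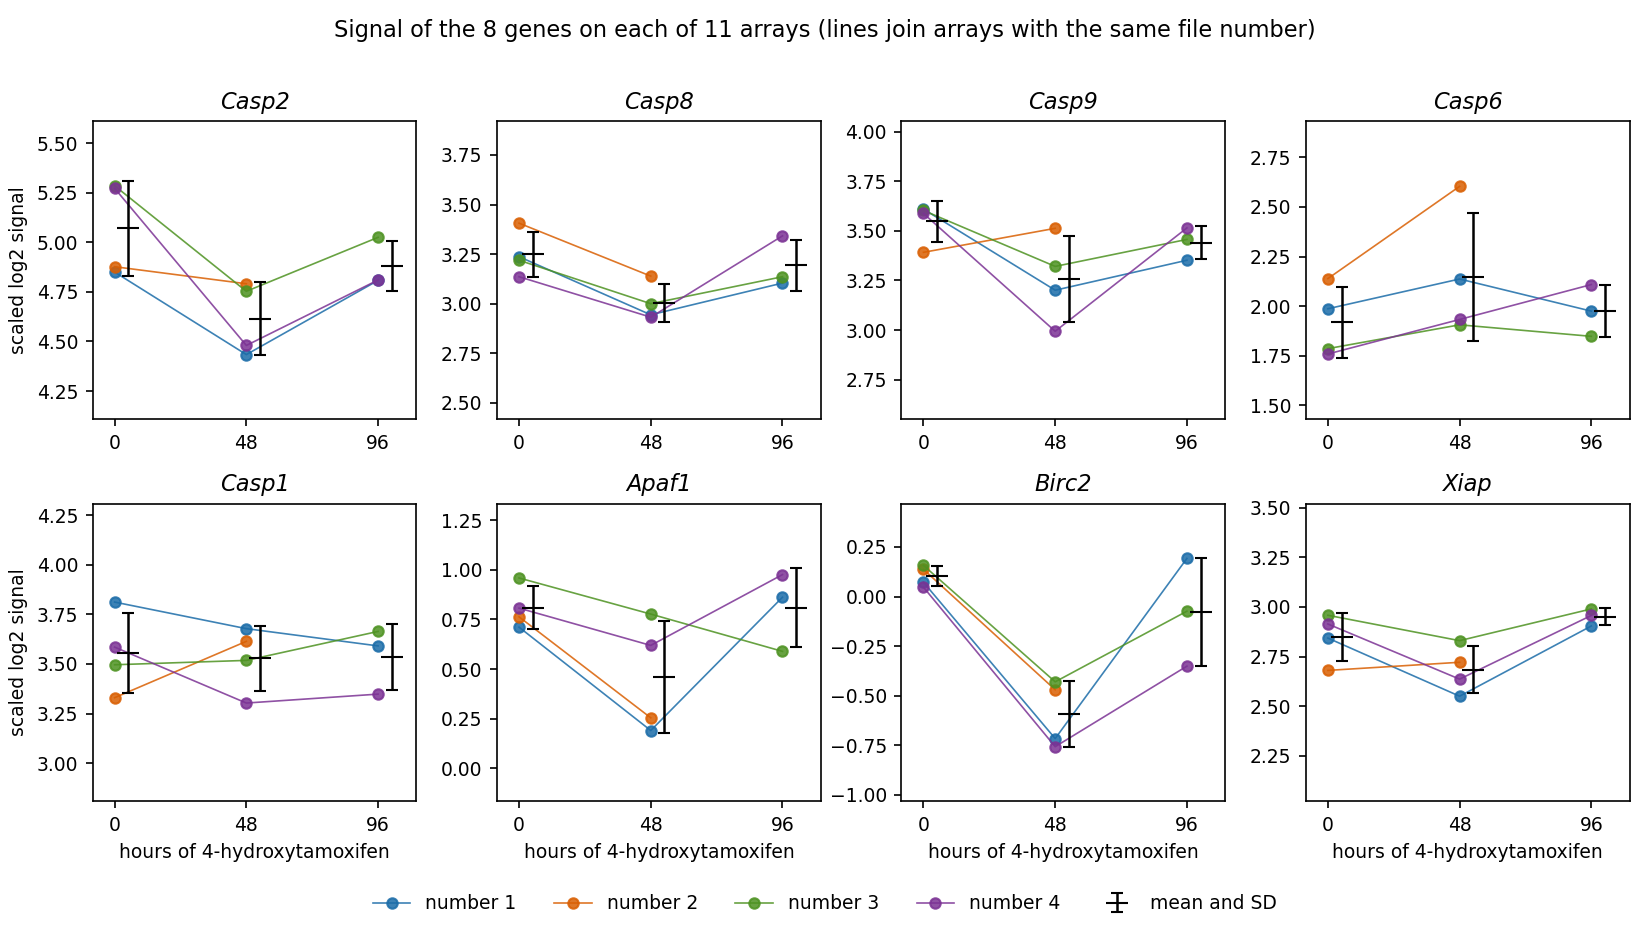
Scaled log2 signal (vertical axis) of each gene on the 11 arrays by hours of 4-hydroxytamoxifen (horizontal axis), with lines joining arrays of the same file number and black marks giving mean and SD. Birc2 sits lowest on all 4 arrays at 48 h, Casp2 is lower at 48 h than at 0 h on every array, and the groups of Casp1 overlap.

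Xiap did not pass the test in any of the 3 comparisons. Its probe (A_55_P2052892) gave 2.84, 2.68, 2.96 and 2.91 at 0 h, 2.55, 2.72, 2.83 and 2.64 at 48 h and 2.90, 2.99 and 2.96 at 96 h. The 48 h and 0 h arrays overlapped, and the 3 arrays at 96 h all lay above those at 48 h. The difference from 0 h was -0.16 at 48 h (interval -0.38 to 0.05, adjusted p = 0.251) and 0.10 at 96 h (interval -0.13 to 0.33, adjusted p = 0.547). Between 48 h and 96 h it was 0.27 (interval 0.04 to 0.50, adjusted p = 0.126), and in the deposited table, with a smaller spread, 0.28 with an adjusted p of 0.0162.

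Among the initiator caspases, Casp2 was lower at 48 h. Casp2 encodes a protease activated on the PIDDosome platform after centrosome gain or DNA damage. Its probe (A_51_P296448) gave 4.85, 4.88, 5.29 and 5.27 at 0 h, 4.43, 4.79, 4.75 and 4.48 at 48 h and 4.81, 5.03 and 4.81 at 96 h. Every 48 h array lay below every 0 h array, but the highest at 48 h (4.79) and the lowest at 0 h (4.85) were close, and the 96 h arrays lay above the 48 h arrays and overlapped with those at 0 h. The 48 h level was 72.9% of that at 0 h (log2 difference -0.46, SE 0.14, interval -0.77 to -0.14, adjusted p = 0.0477). The call held in 9 of 24 alternative analyses and ended when 0 h replicate 3 or 4, or any array at 48 h or 96 h, was dropped (adjusted p 0.0519 to 0.123), while the direction was the same in all 24. In the deposited table the difference was -0.49 (adjusted p = 0.0148). At 96 h it was -0.19 against 0 h (interval -0.53 to 0.15, adjusted p = 0.436).

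Casp8, which starts the death receptor pathway, and Casp9, the apoptosome's protease, had lower means at 48 h than at 0 h but did not pass the test. The Casp8 probe (A_51_P247799) gave 3.24, 3.41, 3.22 and 3.14 at 0 h, 2.94, 3.14, 3.0 and 2.93 at 48 h and 3.10, 3.14 and 3.34 at 96 h. The 48 h and 0 h groups met at 3.14, and all 4 same-numbered pairs were lower at 48 h, by between 0.20 and 0.29. The log2 difference was -0.25 (interval -0.46 to -0.03, unadjusted p = 0.0307, adjusted p = 0.106 by limma). The Casp9 probe (A_55_P1990970) gave 3.61, 3.39, 3.60 and 3.59 at 0 h, 3.20, 3.51, 3.32 and 2.99 at 48 h and 3.35, 3.46 and 3.52 at 96 h. In the pair numbered 2 the 48 h array was the higher one, in the other 3 pairs the lower one. Its difference at 48 h was -0.29 (interval -0.55 to -0.03, unadjusted p = 0.0337, adjusted p = 0.112 by limma), and -0.38 (adjusted p = 0.0542) without 48 h replicate 2. The differences of Casp8 and Casp9 from 0 h at 96 h were -0.06 and -0.11, with intervals of -0.29 to 0.18 and -0.39 to 0.18.

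Apaf1, the scaffold on which the Casp9 protein is activated, behaved unevenly between arrays. Its probe (A_51_P417701) gave 0.71, 0.76, 0.96 and 0.81 at 0 h, 0.19, 0.25, 0.78 and 0.62 at 48 h and 0.86, 0.59 and 0.98 at 96 h. Arrays 1 and 2 at 48 h lay below every other array, while array 3 at 48 h lay within the 0 h range and array 4 just below it. The difference at 48 h was -0.35 (interval -0.68 to -0.02, unadjusted p = 0.0405, adjusted p = 0.126 by limma), with all 4 same-numbered pairs below 0 and a span from -0.52 to -0.18. Between 96 h and 0 h it was -0.00 (interval -0.36 to 0.36, adjusted p = 0.998), and the rise between 48 h and 96 h of 0.35 did not pass (adjusted p = 0.189).

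Casp6 and Casp1 did not pass in any comparison. Casp6, an executioner that cleaves nuclear lamins, gave 1.99, 2.14, 1.79 and 1.76 at 0 h, 2.14, 2.60, 1.91 and 1.93 at 48 h and 1.98, 1.85 and 2.11 at 96 h (probe A_51_P215922). It alone of the 8 had a higher mean at 48 h than at 0 h, and 4 of 4 same-numbered pairs were above 0, by 0.12 to 0.47. The difference was 0.23 (interval -0.14 to 0.59, adjusted p = 0.346), and array 2 stood highest in both groups. Casp1 gave 3.81, 3.33, 3.50 and 3.59 at 0 h, 3.68, 3.61, 3.52 and 3.30 at 48 h and 3.59, 3.66 and 3.35 at 96 h (probe A_55_P1990944). Its means at the 3 times lay within their SDs of each other (3.56 ± 0.20, n = 4; 3.53 ± 0.16, n = 4; 3.53 ± 0.17, n = 3). The differences from 0 h were -0.03 at 48 h (interval -0.32 to 0.27) and -0.02 at 96 h (interval -0.34 to 0.30).

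Counted together, 2 of the 8 genes were lower and 0 higher at 48 h against 0 h, where 18.6% of all genes tested passed, 8.03% as lower. The 8 differences ran from -0.70 to 0.23 with a median of -0.27, against a median of 0.12 over all genes, and 7 of 8 were below 0 where 38.5% of all genes were. For 2 of the 8, Birc2 and Casp2, no 48 h array overlapped with a 0 h array on the lower side, which held for 9.82% of all genes. The choice of scale moved all genes together: with each array scaled to its median, the median difference of all genes at 48 h was -0.10 and that of Birc2 -0.92. Relative to the median of all genes, Birc2 was at -0.82 with 75th-percentile scaling. Birc2 was lower at 48 h in 24 of 24 alternative analyses and passed the test in each, with differences between -0.92 and -0.52.

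**Figure D2:**
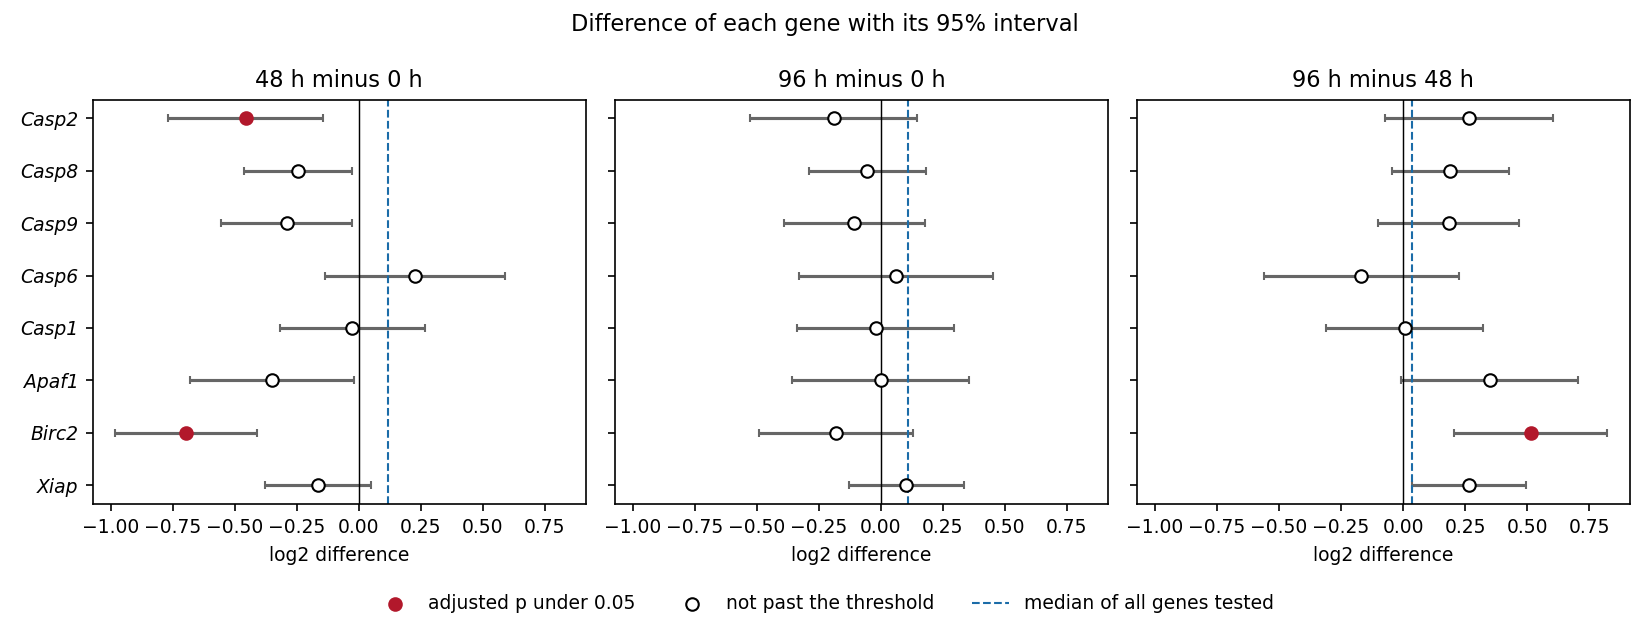
Log2 difference of each gene (horizontal axis, points with 95% intervals) for 48 h minus 0 h, 96 h minus 0 h and 96 h minus 48 h. Filled points have an adjusted p under 0.05, and the dashed line is the median of all genes tested, 0.12, 0.11 and 0.04.

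At 96 h against 0 h, 0 of the 8 genes passed the limma test, where 9.56% of all genes passed. An unadjusted limma p under 0.05 was found for 0 of the 8 genes and for 7156 of all 25079. The differences of the 8 ran from -0.19 for Casp2 to 0.10 for Xiap, with a median of -0.04 against 0.11 over all genes, and the 96 h and 0 h arrays of all 8 genes overlapped, where 25.1% of all genes had groups that did not. Between 96 h and 48 h, 1 of 8 was higher, namely Birc2, and 0 were lower, where 11.1% of all genes passed and 5.17% as higher. There 7 of 8 differences were above 0, with a median of 0.23 against 0.04 over all genes. For Birc2, Casp2 and Xiap every 96 h array lay above every 48 h array, which held for 14.2% of all genes. Since the 48 h arrays enter both this comparison and that with 0 h, the 2 sets of differences are not independent.

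**Figure D3:**
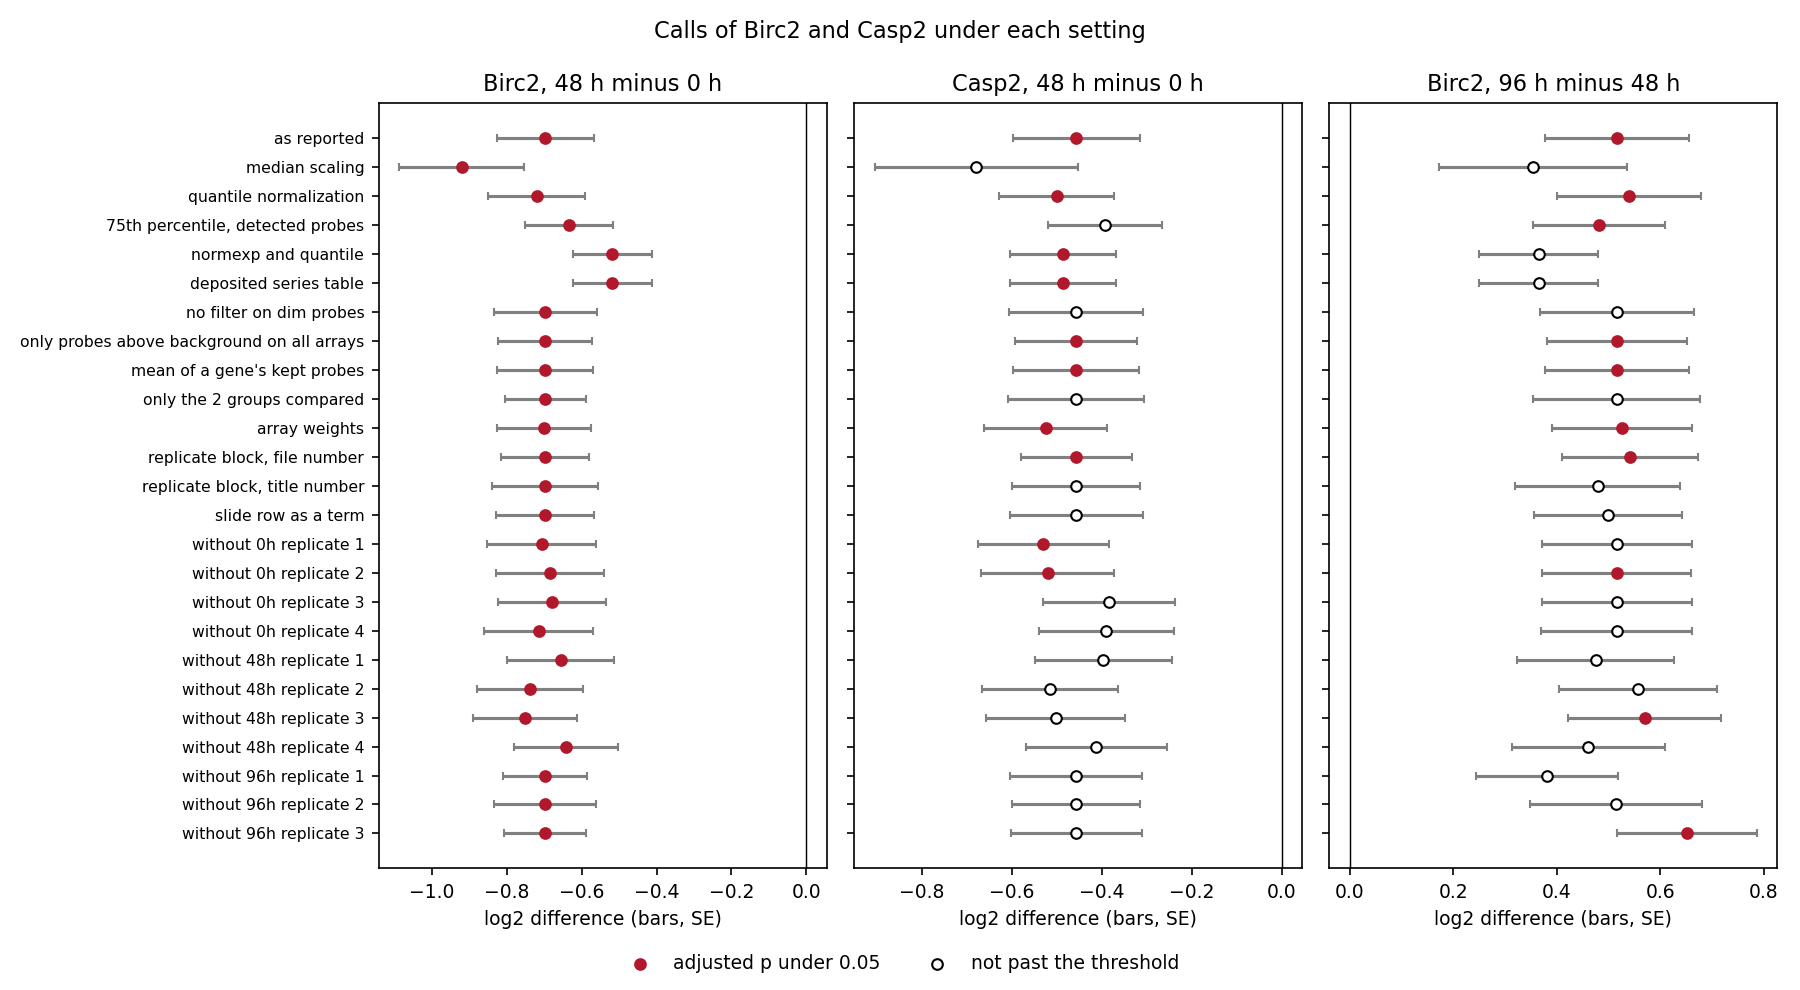
Log2 difference and SE (horizontal axis) of Birc2 at 48 h minus 0 h, Casp2 at 48 h minus 0 h and Birc2 at 96 h minus 48 h under each processing setting (rows). Birc2 at 48 h keeps filled points (adjusted p under 0.05) in all rows, while Casp2 and the later rise of Birc2 keep them in 9 of the 24 alternatives each.

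The other genes of the pathway were read from lists that hold 80 entries, of which 74 passed the detection filter. Of 4 other caspase genes at 48 h against 0 h, 1 was higher and 2 were lower, with a median of -0.17. There 18.6% of all genes tested passed, 8.03% as lower. Casp4, the inflammatory caspase that senses lipopolysaccharide and that lies next to Casp1 on chromosome 9, fell by 0.84 (SE 0.21, adjusted p = 0.0225) with overlapping groups, and its call ended when 0 h replicate 1, 3 or 4 or 48 h replicate 1 or 4 was dropped (0.0528 to 0.064). At 96 h relative to 0 h, 0 of these 4 passed (limma, 2 with an unadjusted p under 0.05), with Casp4 at -0.80 (adjusted p = 0.0521). Among all 25079 genes, 7156 had an unadjusted limma p under 0.05 there.

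Of 8 other genes with the inhibitor of apoptosis repeat, 0 passed in any of the 3 comparisons (limma, 1 with an unadjusted p under 0.05 in each), and their median difference from 0 h was 0.02 at 48 h and 0.06 at 96 h. Such unadjusted p-values numbered 8705, 7156 and 7045 over 25079 genes (48 h and 96 h against 0 h, then 96 h against 48 h). Birc3, which encodes cIAP2, the closest relative of cIAP1, and whose gene lies next to Birc2 on chromosome 9, was picked out after its values were seen. It averaged -0.83 ± 0.25 at 48 h and -0.75 ± 0.22 at 0 h (SD, n = 4 each), a difference of -0.08 (adjusted p = 0.714). At 96 h its difference was -0.39 against 0 h and -0.31 against 48 h (limma, adjusted p = 0.138 and 0.236). The difference between Birc2 and Birc3 in their response was not tested.

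The list of mitochondrial activators and antagonists of the inhibitors held 10 genes, among them general chaperone genes. Of these 10, 5 were higher at 48 h against 0 h and 0 lower, with a median of 0.30. Of all 25079 genes tested, 2644 were higher in that comparison. The 5 of the list included the chaperone genes Hspa8 (0.72, adjusted p = 0.00671) and Hsp90aa1 (0.63, adjusted p = 0.0029), which serve many proteins besides Apaf1, and Cycs, cytochrome c, which rose by 0.35 (adjusted p = 0.0177) and averaged 7.55 ± 0.08 at 48 h and 7.20 ± 0.07 at 0 h (SD, n = 4 each). The calls of Hspa8 and Hsp90aa1 were lost under median scaling alone (adjusted p = 0.195 and 0.18), and that of Cycs under median scaling and 5 other of the 13 alternatives that kept all arrays (adjusted p 0.053 to 0.724), with a difference of 0.18 in the deposited table. The count of 5 includes Septin4, which has an isoform that antagonises Xiap. Its probe was well above background on 0 of 4 arrays at 0 h and on 2 of 4 at 48 h, and so passed the detection filter only through the later arrays. The fitted log2 difference was 1.59 at 48 h (limma, adjusted p = 0.0272), from 0 h values not well above background. With 0 h values raised to the lowest well-above-background signal of each array, the 48 h mean was 1.13-fold higher, a ratio that was not tested. In the deposited table the difference was 0.13 (adjusted p = 0.165). Its call also ended when 0 h replicate 3 or 4 or 48 h replicate 1 or 2 was dropped (0.0639 to 0.0728), and nothing is read from it. At 96 h against 48 h, 3 of the 10 were lower and 0 higher, where 1493 of all 25079 genes were lower. Cycs fell by 0.41 (adjusted p = 0.0179), Hspa8 by 0.61 (adjusted p = 0.0216) and Endog, a mitochondrial nuclease gene, by 0.57 (adjusted p = 0.0148). All 3 calls were lost without 96 h replicate 1, that of Cycs also without 96 h replicate 3 and that of Hspa8 also without 48 h replicate 4 (adjusted p 0.0589 to 0.0803). They also depended on the scale: in the deposited table the difference was -0.15 for Cycs (adjusted p = 0.248) and -0.17 for Hspa8 (adjusted p = 0.311), and with the mean of its probes that of Hspa8 was -0.23 (adjusted p = 0.34).

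**Figure D4:**
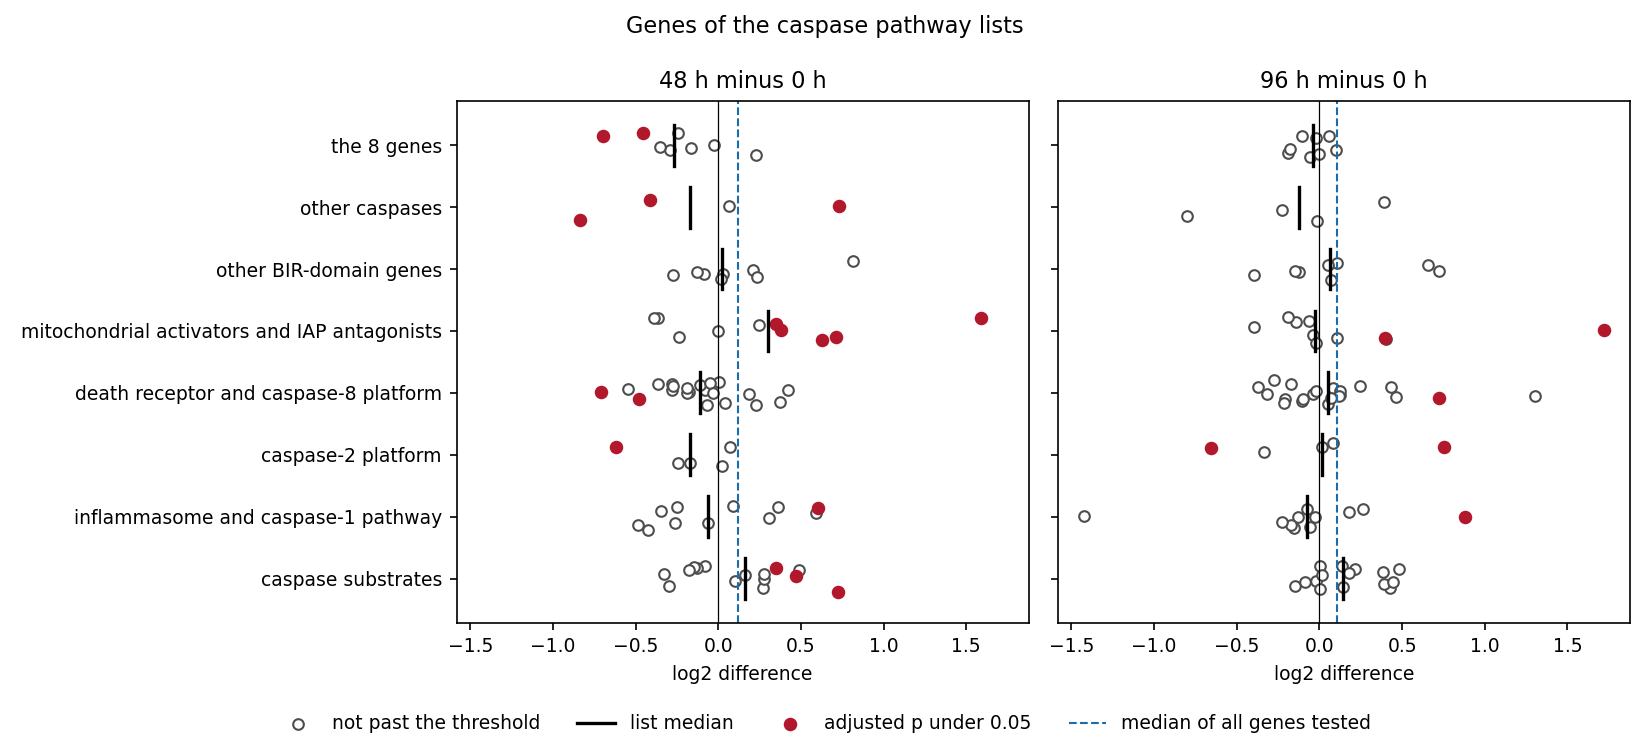
Log2 difference (horizontal axis) of every detected gene in each pathway list (rows) at 48 h minus 0 h and 96 h minus 0 h, with filled points at an adjusted p under 0.05, a bar at the list median and a dashed line at the median of all genes. At 48 h the 8 genes have a median of -0.27 and the row of mitochondrial activators, which also holds chaperone genes, one of 0.30.

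Of 21 genes of the platform on which Casp8 is activated, 0 were higher and 2 lower at 48 h against 0 h, a share of 9.52% beside 8.03% lower among all genes, and the median was -0.11. An unadjusted limma p under 0.05 was found for 6 of the 21 and for 8705 of all 25079 genes. Fas, a death receptor gene, fell by 0.71 (adjusted p = 0.0358) and Cyld, which encodes a deubiquitinase that opposes the ubiquitin chains made in receptor complexes, by 0.48 (adjusted p = 0.0342). Fas passed in 16 and Cyld in 14 of 24 alternatives. Both calls ended when 0 h replicate 1, 3 or 4 or 48 h replicate 1, 2 or 4 was dropped (adjusted p 0.0526 to 0.0945), that of Fas with 48 h replicate 3 as well. With the mean of its kept probes in place of the brightest, Cyld was at -0.11 (adjusted p = 0.526), so its value rests on the choice of probe. Of the 21, 1 was higher at 96 h than at 0 h. This was Traf3 (0.72, adjusted p = 0.0263), which encodes a partner of cIAP1 in the alternative NF-kB pathway and passed in 16 of 24 alternatives. Its call was lost without 0 h replicates 3 or 4 or any of the 3 arrays at 96 h (0.0559 to 0.0774). Among other settings, it was also lost under median scaling (0.34, adjusted p = 0.33). Cyld rose by 0.60 between 48 h and 96 h (adjusted p = 0.0285), passing in 15 of 24 alternatives. This call was lost without 48 h replicates 2 or 4 or any 96 h array (0.0613 to 0.0921). With the mean of its probes the difference was 0.17 (adjusted p = 0.391).

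Of 5 genes of the Casp2 platform and its targets, 1 was lower at 48 h, where 8.03% of all genes were. Bid, which encodes a pro-apoptotic protein that initiator caspases cleave, fell by 0.62 (SE 0.12, adjusted p = 0.0108) and passed in 24 of 24 alternatives. At 96 h Bid was still 0.66 lower than at 0 h (adjusted p = 0.0204), passing in 20 of 24. That call was lost without 0 h replicate 4 or 96 h replicates 2 or 3 (0.0525 to 0.0663) and in a fit of only the 2 groups (0.0634). Pidd1, the platform's own gene, averaged -0.62 ± 0.20 at 96 h (SD, n = 3) and -1.37 ± 0.33 at 0 h (n = 4). This rise of 0.75 (adjusted p = 0.0288) passed in 16 of 24 alternatives. Its call was lost without 0 h replicate 4 or any 96 h array (0.0512 to 0.0922). Among other settings, it was also lost under median scaling (0.37, adjusted p = 0.37).

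Of 11 detected genes around Casp1 and the inflammasome, 1 was higher and 0 lower at each of 48 h and 96 h relative to 0 h, and 1 was higher and 1 lower at 96 h relative to 48 h, with medians of -0.06, -0.07 and -0.11. In these comparisons 18.6%, 9.56% and 11.1% of all genes passed. Card6, which encodes a protein with a caspase recruitment domain, was 0.61 higher at 48 h than at 0 h (adjusted p = 0.0326, passing in 14 of 24 alternatives and ending when 0 h replicate 1, 3 or 4 or any 48 h array was dropped, 0.0507 to 0.0813) and at 96 h fell by 0.83 against 48 h (adjusted p = 0.019, in 23 of 24). Gsdmd, the pore protein that Casp1 cleaves, averaged 3.18 at 96 h and 2.57 at 48 h, a rise of 0.61 (adjusted p = 0.0286, lost without 48 h replicates 3 or 4 or 96 h replicate 1, 0.06 to 0.106). Nlrc4, an inflammasome sensor gene, was 0.88 higher at 96 h than at 0 h (adjusted p = 0.0367), passing in 14 of 24 alternatives. Its call ended when 0 h replicate 1 or 3, 48 h replicate 2 or any 96 h array was dropped (0.0517 to 0.106). Among other settings, it also ended under median scaling (0.49, adjusted p = 0.21). Of 15 genes whose proteins caspases cleave or activate, 3 were higher and 0 lower at 48 h relative to 0 h. Among all 25079 genes 2644 were higher there. At 96 h relative to 0 h, 0 of the 15 passed (limma, 3 with an unadjusted p under 0.05, beside 7156 of all 25079 genes). Gsn, the actin-severing protein gelsolin, gave the smallest adjusted p at 48 h (0.47, adjusted p = 0.0195, lost without 0 h replicate 4 at 0.0537, under median scaling and under quantile normalization).

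The genes most like each of the 8 were found by Pearson's correlation of the scaled log2 signal over the 11 arrays, among 14993 genes with a symbol and a value on every array. For Birc2 these were Lsm14b (r = 0.962) and 2310061I04Rik (0.957), for Casp2 Dele1 (0.966) and Upf2 (0.948), and for Xiap Phf20 (0.985) and Asb7 (0.982). Casp8 was most like Ascc1 (0.962) and Dedd (0.932), a death effector domain gene, Casp9 like Specc1l (0.909) and Aff2 (0.908), and Apaf1 like Naa15 (0.957) and Ddx10 (0.94). Casp6 was most like Rnase4 (0.95) and Cd14 (0.915), and Casp1 had the lowest best matches, Prkab2 (0.88) and Tmem176b (0.862). Among the 8 themselves the highest correlation was between Casp2 and Casp9 (0.799), followed by Casp2 with Birc2 (0.77). These values describe arrays that share their scaling and time points, and the largest of so many correlations is high by selection.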

How the data were processed

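RNA from 11 cultures was hybridised to 1-colour Agilent mouse arrays (probe design built on mm9). Spot intensities were extracted, background-subtracted and detrended with Feature Extraction 11.0.1.1, per the file headers. The deposited table holds log2 values, which the authors made with limma, per the submitters' processing notes. The limma version they used is not stated there. Normexp (offset 50) and quantile normalization of the scanner signals gave the same values when tried here.

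The deposited processed intensity was scaled to each array's 75th percentile in log2, control and outlier-flagged spots were left out (125 to 194 outlier spots an array, 0 saturated), and 34269 probes that passed Agilent's well-above-background flag on 3 or more of 11 arrays were kept. The highest-mean probe stood for each gene. All 3 groups entered 1 limma fit (8 residual degrees of freedom), two-sided, with Benjamini-Hochberg adjustment over 25079 features, 14996 of them with a symbol, and a threshold of 0.05. The fit was tested on simulated data.

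The genes, lists and tests were chosen with earlier results of these data known. Text names all 8 genes, up to 4 of each list with the smallest adjusted p among those passing, and 2 nearest genes by correlation. The values of some listed genes are not reported here. Replicates are numbered by their titles. The 96 h titles number arrays 1, 2 and 3 that the scanner files number 1, 3 and 4. Deviations of arrays with the same file number correlated (r 0.115 to 0.356 over all pairs), so file numbers were taken to pair the arrays, and "same-numbered" refers to them. Other scalings, filters, blocks and left-out arrays were tried. The 24 alternatives count the deposited table and normexp with quantile normalization separately, although both gave the same values. Tools were R 4.3.3, limma 3.58.1, the R package data.table (version 1.17.8), Python 3.11.15, numpy 2.4.6, pandas 2.3.3 and matplotlib 3.10.9.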

Additional observations from a re-analysis of the deposited data

Results flagged for a closer look

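One array stood apart from its group among the 16 groups of 4 arrays examined for these genes. Casp9 was at 3.39 scaled log2 signal on 0 h replicate 2, while the nearest of the other 0 h arrays was at 3.59 and the highest at 3.61. By chance about 1 in 20 such groups shows a gap of this kind. Without that array the Casp9 difference at 48 h against 0 h was -0.34 (adjusted p = 0.0802 by limma).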

How the results depend on the processing

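No difference of the 8 genes that passed a test changed sign. Birc2 at 48 h against 0 h passed in 24 of 24 alternatives. The number of the 8 genes passing at 48 h against 0 h (2) was 1 under median scaling, the percentile over detected probes, no filter on dim probes, a fit of only the 2 groups, the replicate block by title and the slide row as a term, and 1 to 2 with 1 array left out. Between 96 h and 48 h (1) it was 0 under median scaling, no filter, 2 groups, the title block and the slide row, and 0 to 1 with 1 array left out. Under normexp and in the deposited table the 1 gene passing was Xiap and not Birc2. With all probes as the family, 1 of the 8 passed at 48 h, and 2 under quantile normalization, normexp, the deposited table, the filter on all 11 arrays, array weights and the file-number block, with 1 to 2 over left-out arrays. For 96 h against 48 h, 1 passed, and 0 under median scaling, no filter, the title block, the slide row and 2 groups, with 0 to 1 over left-out arrays. Here too the 1 passing was Xiap under normexp and in the deposited table. At 96 h against 0 h the 8 genes gave 0 throughout, and 0 over left-out arrays.

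Over all genes, 4657 passed at 48 h against 0 h, 2355 under median scaling, 2652 without the filter and 2447 to 5431 with 1 array left out. For 96 h against 0 h, 2397 passed, 910 without the filter, 435 with 2 groups, 1484 with the title block and 702 to 3293 over left-out arrays. For 96 h against 48 h, 2789 passed, 920 under median scaling, 1367 without the filter, 1600 with the title block and 988 to 2970 over left-out arrays. The share of higher calls was 56.8%, 64.6% and 46.5% in the 3 comparisons, and 18%, 9.03% and 17.2% under median scaling, where the medians of all genes were -0.10, -0.28 and -0.13.

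In the pathway lists 15 passed at 48 h against 0 h, 6 under median scaling or without the filter and 6 to 20 over left-out arrays. For 96 h against 0 h, 6 passed, 2 without the filter, 0 with 2 groups and 0 to 12 over left-out arrays. For 96 h against 48 h, 9 passed, 1 under median scaling, 2 without the filter, 5 with mean probes or 2 groups, 3 with the title block and 1 to 8 over left-out arrays.

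With genes as the family, the replicate block by file number changed no call of the 8 genes, whereas with all probes it added Casp2 at 48 h. With this pairing Birc2 at 48 h against 0 h was -0.70 (adjusted p = 0.0128), Casp2 was called at an adjusted p of 0.0413, and Birc2 at 96 h against 48 h was 0.54 (adjusted p = 0.0415, limma). The cause of these differences between settings was not tested. Some settings bring fewer arrays or a larger number of features, whose part was not tested either. Array number and 1 probe a gene limit the precision.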
